A study of Solanum lycopersicum with 84 samples.

Results

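The difference between tomato shoots and roots in their response to N supply, that is the N by organ interaction, was estimated for every gene with enough reads in 12 mRNA libraries, out of 84 samples of all assays in the series. Plants of cultivar M82 were grown hydroponically, were 22 days old when they were moved to N-free medium, and spent 4 days in it. They then received either fresh N-free medium (−N) or medium with nitrate (+N), and root and shoot tissue was taken 6 h later. The 4 groups were root −N, root +N, shoot −N and shoot +N, with 3 biological replicates each, and tissue of 4 plants was pooled for every replicate. All 4 groups thus shared the starvation, and −N stands for continued starvation rather than for plants that had never lacked N. The interaction of a gene is its N change in shoots minus its N change in roots on the log2 scale, so that a value above 0 means a larger rise or a smaller fall in shoots and a value below 0 a larger rise or a smaller fall in roots.

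Nitrate acts in plants both as a nutrient and as a signal. It is taken up and carried to the xylem in roots, is reduced to nitrite and then ammonium in either organ, and is built into glutamine and glutamate with reductant and carbon skeletons. In green tissue light provides the reductant, whereas root plastids draw it from sugar through the oxidative pentose phosphate pathway. Which steps each organ turned on within hours of the same supply is the question that the interaction addresses.

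The libraries held 17472760 to 21901432 counted reads, and the scaling factors of the shared fit (TMM, which sets libraries against each other by the bulk of their genes rather than by the total) lay between 0.894 and 1.11. Expression is given as CPM, the count scaled to a common library size with these factors. The organ labels were borne out by the summed levels of the marker genes. The 12 genes listed under light harvesting and photosystems, which include rubisco activase, summed to 28.8 to 43.2 CPM in root libraries and to 4660 to 10393 CPM in shoot libraries. The 15 genes of root hairs and the Casparian strip summed to 524 to 625.0 CPM in roots and to 65.6 to 99.9 CPM in shoots. The marker sums moved with N as well, and shoot libraries held 4660 to 5333 CPM of the first list in −N and 9703 to 10393 CPM in +N. Rubisco activase alone had 839.8 to 880.2 CPM in shoot −N and 3174 to 3439.9 CPM in shoot +N libraries. Whole organs were sampled, so fewer cells of a type and less RNA per cell cannot be told apart in any of the results.

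Of 22483 tested genes, 3200 had an interaction of at least 2-fold at an adjusted p of 0.015 in edgeR's quasi-likelihood test, which is 14.2% of the genes tested. These genes are referred to as called. The interaction lay above 0 for 1626 of them (7.23% of the genes tested) and below 0 for 1574 (7.0%). Without the fold cutoff 9177 genes passed the same adjusted p, so 5977 genes differed between the organs by less than 2-fold. The cutoff falls where genes are dense, with 518 called genes between 1 and 1.1 and 595 genes that passed the adjusted p between 0.9 and 1 on the log2 scale.

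The called genes were split by the organ in which the absolute N change was larger and by its sign there. The largest class were 1162 genes with a larger rise in shoots (5.17% of the genes tested), followed by 964 with a larger fall in shoots (4.29%), 610 with a larger rise in roots (2.71%) and 464 with a larger fall in roots (2.06%). The response was thus larger in shoots for 2126 genes, or 66.4% of those called, and larger in roots for 1074. The organ shares changed little with the scaling of the libraries, but the signs did. Rises made up 54.7% of the genes with the larger response in shoots, and this share was 66.7% with TMM factors computed within each organ, 65.2% with DESeq2 and 45.9% with total counts. The median interaction over all tested genes was −0.026, and no scaling moved it by more than 0.085.

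**Figure D1:**
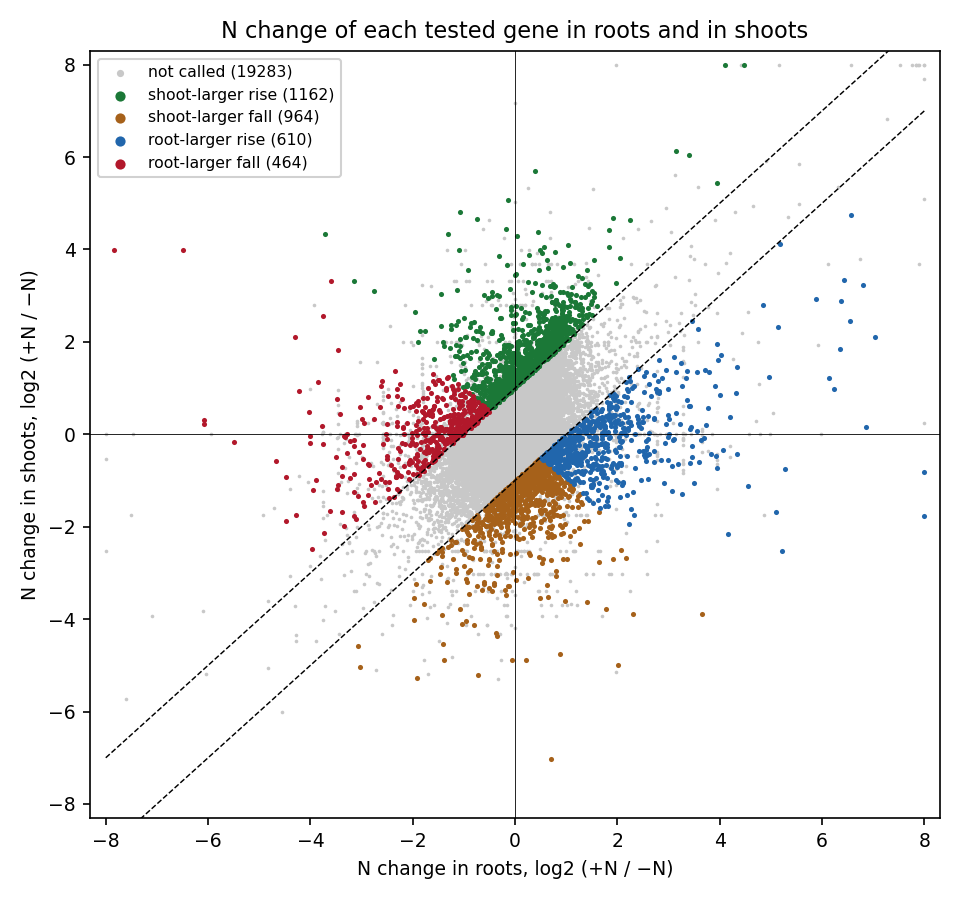
N change of each of the 22483 tested genes in roots (x axis) and in shoots (y axis), both as log2 of +N over −N, with values beyond 8 drawn at 8. Colours mark the 4 classes of called genes and dashed lines an interaction of 1 and −1. The 1162 larger rises in shoots lie above the upper line, most of them close to a root change of 0, and the 610 larger rises in roots lie to the right of the lower line.

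Within the organs, at the same thresholds, 5.94% of all tested genes rose and 6.13% fell in roots, and 11% rose and 8.72% fell in shoots. In most called genes the organ with the larger response was called alone. Among the 1162 genes with the larger rise in shoots, 892 passed the same thresholds for a rise in shoots and were not called in roots, 86 rose in both organs and 18 rose in shoots while they fell in roots. Their median N change was 1.70 in shoots and 0.20 in roots. The 964 larger falls in shoots had medians of −1.27 in shoots and 0.16 in roots, and 627 of them were called in shoots and not in roots. Roots showed the same form, with medians of 1.53 in roots and −0.31 in shoots for the 610 larger rises and of −1.51 and 0.15 for the 464 larger falls. For 395 of the larger rises and 312 of the larger falls in roots, roots were the organ called. In 160, 279, 148 and 112 genes of the 4 classes, in the order given above, the interaction was called while neither organ was called by itself.

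The genes with the larger rise in shoots took 5.55 ± 0.0498% of the counted reads of shoots in −N and 16.6 ± 0.128% in +N (SD, n = 3). In roots these genes took 6.79 ± 0.164% in −N and 8.57 ± 0.0488% in +N. The genes with the larger rise in roots went from 3.57 ± 0.316% to 9.19 ± 0.0929% of the reads of roots and from 2.45 ± 0.00771% to 2.35 ± 0.0133% of those of shoots. Shoots thus moved a larger part of their counted reads to their class of 1162 genes than roots did to theirs of 610. Each class was chosen by its change in these libraries, so the shares are a description.

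The level of a gene averaged over both N treatments differed between the classes. This average takes in the +N libraries by which the classes were also chosen. Over all tested genes, 20.9% had at least 2-fold more reads in shoots and 19.4% at least 2-fold more in roots at an adjusted p of 0.015 in edgeR. Of the larger rises in roots, 52.6% were higher in roots and 14.8% higher in shoots. The larger falls in roots went the other way, with 22% higher in roots and 46.3% higher in shoots. Among the larger rises in shoots 32.8% were higher in shoots and 12.4% in roots, and among the larger falls in shoots 13.4% and 36.3%. In both organs, the share of genes with the higher level in that organ was thus above that of all tested genes among the larger rises, and the share with the higher level in the other organ was above it among the larger falls. No test of these shares was made, and they in part restate the choice of the classes. In −N the median difference between shoots and roots was close to 0 in each class, between −0.32 and 0.05 on the log2 scale. In +N it was 1.06 for the larger rises and −1.40 for the larger falls in shoots, and −1.98 and 1.59 for those in roots.

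**Figure D2:**
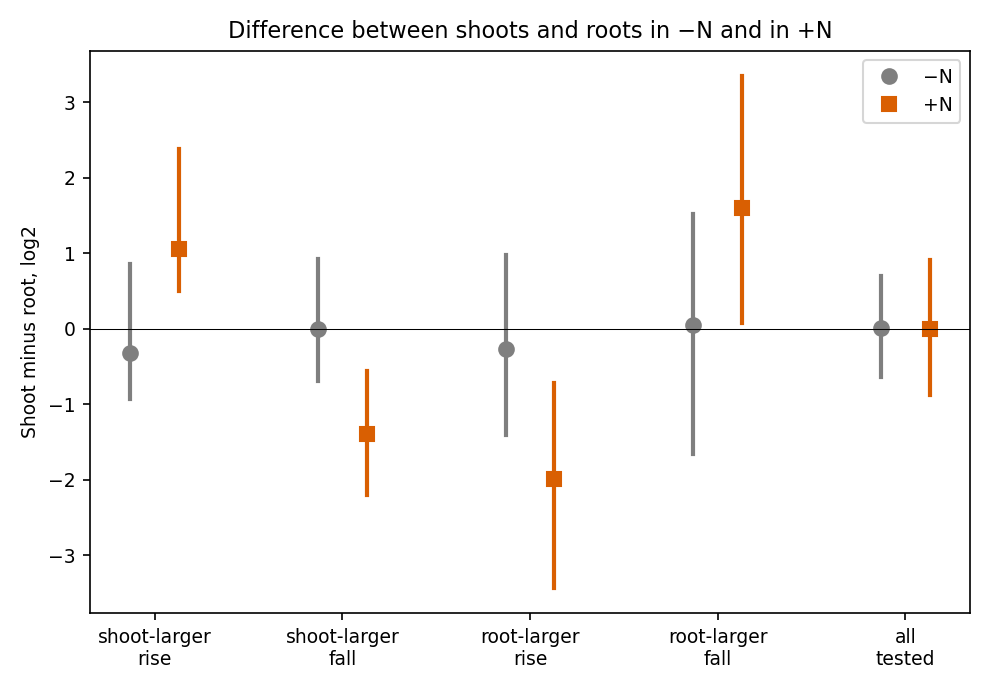
Shoot minus root difference in log2 expression in −N (grey circles) and in +N (orange squares) for the 4 classes and for all tested genes, with the median as the symbol and the quartiles as the line. The medians in −N lie between −0.32 and 0.05 in the classes, and those in +N at 1.06, −1.40, −1.98 and 1.59, since the classes were chosen by the difference between the treatments.

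Gene descriptions were at hand for 3995 of the tested genes, and they come mostly from the study's root DEG lists. They therefore cover 69.5% and 75.4% of the larger rises and falls in roots but 19.8% and 15.4% of those in shoots, and the gene groups below were drawn from them. Groups of root-responsive genes are thus over-represented in roots by their construction. Of the described genes 1152 of 3995 (28.8%) were called, against 14.2% of all tested genes, and the share of each group is to be read against both values. For each main group the members that are on neither root list are counted apart. Their descriptions come from other lists of the study, which were drawn from the same experiment. The counts apart are therefore free of the choice by root lists only, and are not independent evidence. Over all tested genes on neither list, 1222 of 20157 were called above 0 and 1114 below.

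Genes for ribosomal proteins had the larger rise in shoots. Of 27 tested genes for cytosolic ribosomal proteins, 18 were called and all 18 had the larger rise in shoots, a share of 66.7% against 14.2% of all tested genes. The interaction lay above 0 for 26 of the 27, and the median was 1.15 against −0.026 over all tested genes. On neither root DEG list were 18 of them, and 14 of these 18 were called. Within the organs 24 rose in shoots and 10 in roots, and none fell. Their summed level was 3309 to 3531 CPM in root −N libraries and 5899.8 to 6066.5 CPM in root +N libraries. In shoots it was 2228 to 2384 CPM in −N and 9079 to 9295 CPM in +N. Shoots thus stood below roots in −N and above them in +N, with no overlap between the 4 groups.

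The pattern of the sum held for single subunits. The gene for 40S ribosomal protein S13 (Solyc05g051000.3), a protein of the small subunit, had 54.8, 56.3 and 48.4 CPM in root −N and 112, 124 and 121 CPM in root +N libraries. In shoots its level was 33.1, 29.9 and 28.02 CPM in −N and 232, 222 and 210.1 CPM in +N. In both organs all +N libraries lay above the −N libraries, by 2.24-fold in roots and 7.31-fold in shoots, and the interaction was 1.70 ± 0.10 (SE, edgeR adjusted p = 5.3e-12). The genes for 60S ribosomal protein L32 (Solyc08g006900.3) and ribosomal protein S23 (Solyc09g007350.3) had interactions of 1.63 ± 0.08 and 1.69 ± 0.07.

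Among 32 tested genes of ribosome assembly and translation factors 13 were called (40.6%, against 14.2% of all tested and 28.8% of described genes), 11 of them with the larger rise in shoots, and the median interaction was 0.72. Of the 17 members on neither root list 4 were called, all of them above 0, and the other 9 calls were among the 15 members on the root lists. Fibrillarin (Solyc03g025270.3), which methylates ribosomal RNA in the nucleolus, had 142, 154 and 144 CPM in root −N and 332, 342 and 333 CPM in root +N libraries. Its shoot level was 94.6, 92.4 and 90.5 CPM in −N and 783, 718 and 738 CPM in +N. Its order of groups was that of the ribosomal proteins, with the lowest level in shoot −N and the highest in shoot +N, and the rise was 2.29-fold in roots and 8.07-fold in shoots (interaction 1.82 ± 0.07, edgeR adjusted p = 1.62e-14). Initiation factor 6 (Solyc02g082360.4), which in other eukaryotes acts in the making of the large subunit, went the same way (interaction 2.04 ± 0.25). The exceptions were a gene annotated as elongation factor 1-alpha (Solyc11g069700.2), which rose in roots by 6.599-fold and had an N change of −0.61 in shoots, and a translation initiation factor (Solyc09g008270.3) with a larger fall in roots.

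The study's list of epigenetic regulators, which it chose on these samples, held 30 tested genes, of which 13 were called (43.3%, against 14.2% of all tested genes) and 9 had the larger rise in shoots (5.17% of all tested genes). On neither root list were 20 of the 30, with 8 interactions called above 0 and 1 below. The largest of the rises in shoots was that of a plant-specific histone deacetylase of the HD2 family (Solyc11g066840.3, Arabidopsis homolog HD2B). It had 262, 279 and 256 CPM in root −N, 481, 484 and 518 CPM in root +N, 114, 129 and 129 CPM in shoot −N and 859, 825 and 863 CPM in shoot +N libraries. It too was lowest in shoot −N and highest in shoot +N, and its interaction was 1.88 ± 0.08 (edgeR adjusted p = 5.95e-14). The direction in which a list chosen on these samples moved is not independent evidence.

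Of 12 genes of light harvesting and photosystems 4 had the larger rise in shoots and 1 the larger rise in roots (41.7% called, against 14.2% of all tested genes), and 4 of the 11 on neither root list were called. Of 5 genes of chlorophyll synthesis 2 were called (40%, against 14.2% of all tested and 28.8% of described genes), both with the larger rise in shoots. Of the 4 on neither root list 1 was called. The count for chlorophyll synthesis was 1 without root −N replicate 3 and with voom. Rubisco activase (Solyc10g086580.2) keeps the carbon-fixing enzyme active and is counted in the list of light harvesting and photosystems, among its larger rises in shoots. It had 839.8, 880.2 and 853 CPM in shoot −N and 3336, 3439.9 and 3174 CPM in shoot +N libraries. In roots it stayed between 1.87 and 2.84 CPM in all 6 libraries, and the treatments overlapped. The interaction was 1.79 ± 0.17 (edgeR adjusted p = 1.24e-08). The cyclase that closes the fifth ring of chlorophyll (Solyc10g077040.2, Arabidopsis homolog CHL27) rose 2.96-fold in shoots and had an N change of 0.15 in roots. The exception was a chlorophyll a-b binding protein gene (Solyc12g011450.2, LHCB3 in Arabidopsis), which went from 0.668 to 0.974 CPM in root −N to 4.30 to 4.96 CPM in root +N libraries while it had 663 to 878 CPM in shoots.

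Further named genes with a larger rise in shoots belong to carbon, sulfur, lipid and water metabolism. Phosphoenolpyruvate carboxylase (Solyc07g055060.3), which makes the oxaloacetate that replaces carbon skeletons drawn off for amino acids, had 66.2, 56.9 and 56.6 CPM in root −N and 101, 98.5 and 109.9 CPM in root +N libraries. Shoot libraries held 171, 161 and 162 CPM in −N and 1515, 1496 and 1574 CPM in +N. In both organs the +N libraries lay above the −N libraries without overlap, 1.72-fold in roots and 9.29-fold in shoots (interaction 2.43 ± 0.08, edgeR adjusted p = 4.02e-15). The gene described as RESPONSE TO LOW SULFUR 2 (Solyc03g096770.1) had 5.34, 3.34 and 6.32 CPM in shoot −N and 48.2, 53.9 and 27.4 CPM in shoot +N libraries. Its root level was 2.56, 2.67 and 2.06 CPM in −N and 1.11, 1.28 and 0.935 CPM in +N. The shoot groups stood apart although the +N replicates ranged widely, the root groups stood apart in the other direction, and the interaction was 4.24 ± 0.43 (edgeR adjusted p = 4.02e-08). A 3-ketoacyl-CoA synthase (Solyc11g072980.1), of the family that elongates very long fatty acids, rose 5.15-fold in shoots, and its root change of −1.26 ± 0.45 rested on 42 and 15 counts over 3 libraries. The tonoplast aquaporin TIP1.1 (Solyc06g074820.3) rose 2.68-fold in shoots from 849.98 to 953.55 CPM in −N, and in roots its treatments overlapped.

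Beta expansin precursor 2 (Solyc03g093390.4), of the family that loosens cell walls, and an undescribed gene (Solyc08g078460.3) had higher levels in roots than in shoots in −N and differed less between the organs in +N. The expansin fell in roots from 238, 177 and 146 CPM to 79.96, 77.9 and 53.6 CPM and rose in shoots from 1.72, 1.42 and 2.31 CPM to 7.06, 7.21 and 7.46 CPM. The undescribed gene had 22.7, 19.7 and 22.6 CPM in root −N and 13.96, 13.6 and 11.3 CPM in root +N libraries, and 0.525, 0.667 and 0.4 CPM and 14.7, 15.8 and 10.1 CPM in those of shoots. In +N its levels in roots and shoots overlapped, whereas in −N roots stood far above shoots, and the interaction was 5.40 ± 0.27 (edgeR adjusted p = 7.72e-13). A monothiol glutaredoxin gene (Solyc06g054570.1) had 3 counts in root −N and 1 count in shoot −N over 3 libraries each, against 16.1, 17.3 and 17.97 CPM in shoot +N. Its call was lost without root −N replicate 2 (interaction 2.08, edgeR adjusted p = 0.858) or without shoot −N replicate 1 or 2.

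**Figure D3:**
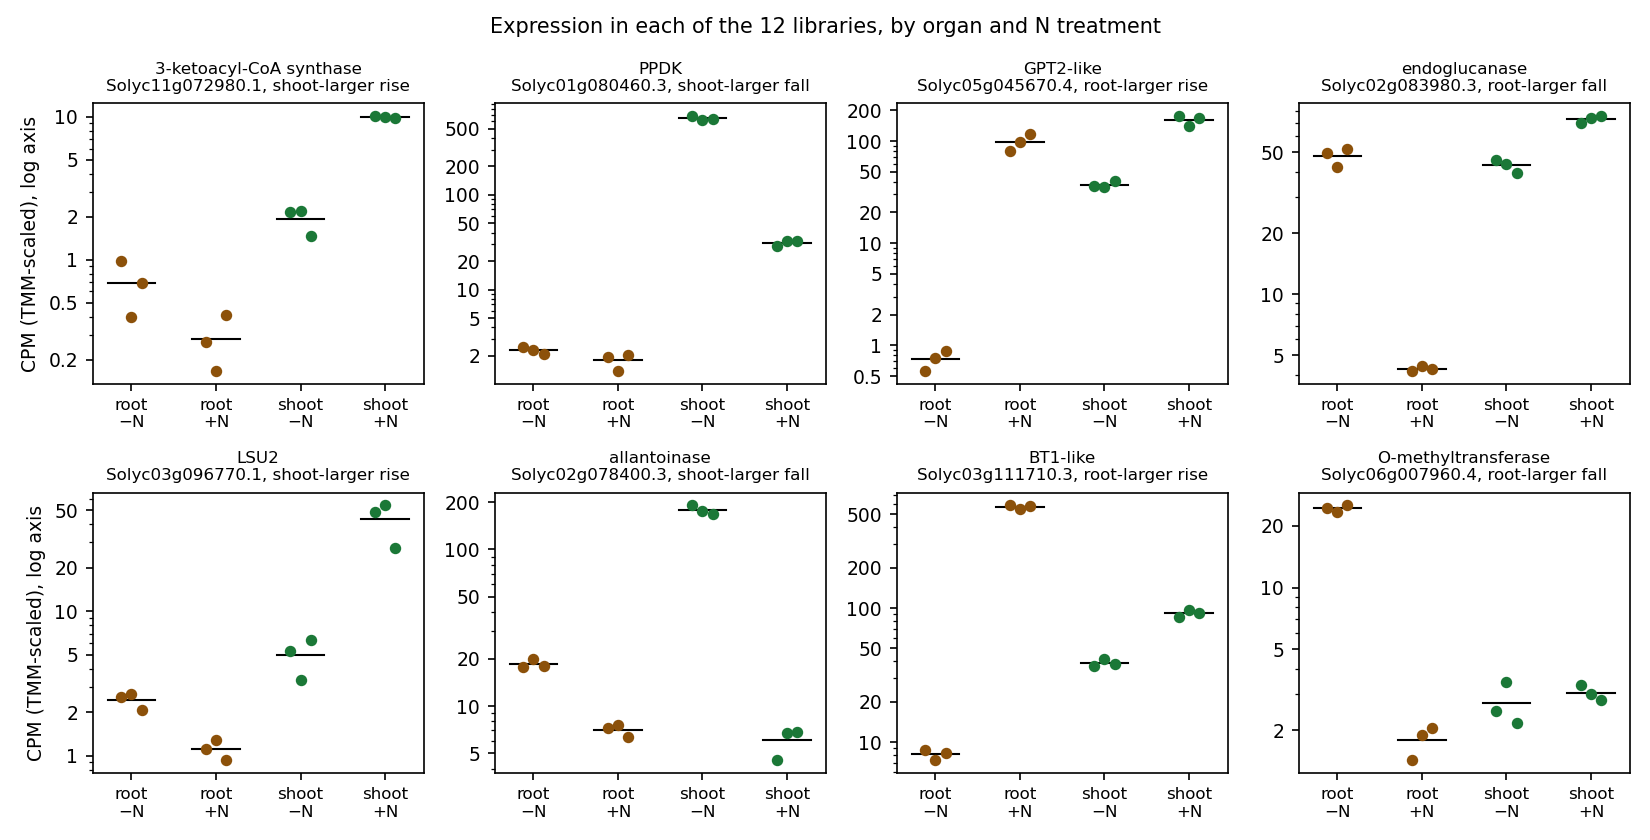
Expression of 8 called genes in each of the 12 libraries, as TMM-scaled CPM on a log axis that differs between panels, by organ and N treatment. Points are libraries (brown for roots, green for shoots) and bars the mean of 3. The columns show, from left to right, larger rises in shoots, larger falls in shoots, larger rises in roots and larger falls in roots.

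The larger falls in shoots included enzymes of carbon and purine metabolism, the ammonium transporter AMT1 and an autophagy gene. Pyruvate, phosphate dikinase (Solyc01g080460.3), which converts between pyruvate and phosphoenolpyruvate, had 676, 612 and 633 CPM in shoot −N and 28.7, 32.4 and 32.5 CPM in shoot +N libraries. In roots it had 2.46, 2.31 and 2.11 CPM in −N and 1.96, 1.39 and 2.05 CPM in +N. The fall was 20.5-fold in shoots, the root groups stood slightly apart with an N change of −0.35 ± 0.18 that did not pass, and the interaction was −4.01 ± 0.21 (edgeR adjusted p = 2.36e-12). Allantoinase (Solyc02g078400.3), an enzyme that recovers N from purines, had 17.7, 20.03 and 18.04 CPM in root −N and 7.27, 7.64 and 6.37 CPM in root +N libraries. Shoot libraries held 191, 176 and 169 CPM in −N and 4.53, 6.79 and 6.85 CPM in +N. It fell in both organs without overlap, 2.62-fold in roots and 29.4-fold in shoots, to about the same level in +N.

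The ammonium transporter AMT1 (Solyc09g090730.2) had a mean of 262 CPM in root −N, 83.0 CPM in root +N, 130 CPM in shoot −N and 14.3 CPM in shoot +N libraries, and it fell in both organs (interaction −1.52). Autophagy-related protein 3 (Solyc06g034160.3), which helps to attach ATG8 to membranes in autophagy, fell in shoots from 82.2, 80.9 and 76.9 CPM to 40.3, 38.6 and 39.4 CPM. In roots it held 63.9 to 67.0 CPM in all 6 libraries, and the treatments overlapped. Its interaction of −1.03 ± 0.08 lay at the fold cutoff and was −0.94 with TMM within each organ, where it was no longer called.

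Regulators with a larger fall in shoots came from several families. TGA1 (Solyc04g054320.4), a bZIP factor whose Arabidopsis homolog acts in the nitrate response of roots, went in roots from 153, 143 and 142 CPM to 214, 229 and 233 CPM. In shoots it fell from 84.1, 85.9 and 80.5 CPM to 20.2, 18.7 and 18.5 CPM. Both changes were free of overlap, the fall in shoots was 4.36-fold and the N change in roots of 0.63 was below the fold cutoff (interaction −2.75 ± 0.08, edgeR adjusted p = 6.11e-16). A two-component response regulator (Solyc05g014260.3, Arabidopsis homolog ARR11, a transcription factor of cytokinin signalling) had 80.00, 76.8 and 75.9 CPM in root −N and 20.5, 23.1 and 23.97 CPM in root +N libraries. Shoots had 305, 298 and 318 CPM in −N and 20.7, 25.1 and 26.1 CPM in +N. As with allantoinase, both organs fell to a like level in +N, from a level that was higher in shoots. A NAC domain protein (Solyc07g063410.3, Arabidopsis homolog RD26) fell 9.54-fold in shoots, and a sigma factor (Solyc03g007370.3, Arabidopsis homolog SIG5, which directs the plastid RNA polymerase) fell 5.21-fold in shoots and rose 2.404-fold in roots. An undescribed gene (Solyc02g076910.3) had 379 counts in shoot −N and 2 in shoot +N over 3 libraries each, a ratio of 150.5 with an exact 95% interval of 41.4 to 1247 that covers counting error only.

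The larger rises in roots included the supply of reductant for nitrite reduction. Of 17 genes for reductant and carbon skeletons 8 were called (47.1%, against 14.2% of all tested and 28.8% of described genes), 6 of them with the larger rise in roots, and the median interaction was −0.87 against −0.026 over all tested genes. Of the 17 genes 15 are on the root DEG lists, and of the other 2 genes 1 was called above 0 and 0 below. All 6 larger rises in roots are thus genes of the root DEG lists. Ferredoxin NADP reductase (Solyc02g024050.3, Arabidopsis homolog RFNR2), which feeds electrons from NADPH to ferredoxin in root plastids, had 99.2, 113 and 102 CPM in root −N and 1313, 1324 and 1473 CPM in root +N libraries. In shoots it had 80.4, 84.5 and 83.4 CPM in −N and 222, 206 and 219 CPM in +N. Both organs rose without overlap, 13.1-fold in roots and 2.605-fold in shoots, from levels in −N that were close to each other (interaction −2.33 ± 0.08, edgeR adjusted p = 4.52e-15).

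Glucose-6-phosphate 1-dehydrogenase (Solyc07g045540.4), the first enzyme of the oxidative pentose phosphate pathway, rose 15.6-fold in roots and 3.03-fold in shoots. The 6-phosphogluconate dehydrogenase of the same pathway (Solyc12g056120.1) had an N change of 3.11 in roots and 1.68 in shoots. The glucose-6-phosphate/phosphate translocator (Solyc05g045670.4, Arabidopsis homolog GPT2), which brings the sugar phosphate into plastids, had 0.564, 0.757 and 0.885 CPM in root −N and 80.4, 97.3 and 117 CPM in root +N libraries. Its shoot level was 36.02, 35.4 and 40.6 CPM in −N and 175, 139.7 and 169.8 CPM in +N. Roots started far below shoots and came within the same order of magnitude, with rises of 132-fold in roots and 4.33-fold in shoots (interaction −4.93 ± 0.25, edgeR adjusted p = 9.33e-13).

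In the assimilation list 8 of 13 tested genes were called (61.5%, against 14.2% of all tested and 28.8% of described genes). The larger rise in roots was seen in 5 of them (2.71% of all tested genes, and 424 of the 3995 described genes). The root DEG lists hold 12 of the 13, among them all 5 larger rises in roots, and the remaining gene was called above 0. The nitrite reductase genes, whose product turns nitrite into ammonium, both rose more in roots, with interactions of −2.95 ± 0.09 for Solyc10g050890.2 and −1.82 ± 0.14 for Solyc01g108630.3. For Solyc10g050890.2 the +N level was 1493 to 1637 CPM in roots and 112 to 122 CPM in shoots, whereas for Solyc01g108630.3 it was 235 to 263 CPM in roots and 836 to 900.3 CPM in shoots. The larger rise in roots was therefore seen in the gene with the higher +N level in roots and in the gene with the higher +N level in shoots. Glutamate dehydrogenase (Solyc10g078550.4), which converts between glutamate and 2-oxoglutarate, had 176, 187 and 186 CPM in root −N and 704, 747 and 801 CPM in root +N libraries. Shoot libraries held 123, 123 and 124 CPM in −N and 80.8, 78.1 and 80.98 CPM in +N. It rose in roots and had a lower level in all +N shoot libraries, with an N change of −0.62 there that was below the fold cutoff (interaction −2.66 ± 0.07, edgeR adjusted p = 2.4e-16). Phosphoenolpyruvate carboxylase kinase 2 (Solyc06g053620.4), which activates the carboxylase, behaved likewise, with N changes of 2.57 in roots and −0.35 in shoots, while the carboxylase gene itself had the larger rise in shoots.

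Regulators of the nitrate response were called at a share close to that of described genes, and the few called members were spread over several classes. Of 22 genes of the LBD, NLP, HHO, TGA and BT families 6 were called (27.3%, against 14.2% of all tested and 28.8% of described genes), 3 with the larger rise in roots, 2 with the larger rise in shoots and 1 with the larger fall in shoots. The root DEG lists hold 11 of the 22, and 2 of the other 11 were called. A BTB/POZ and TAZ domain protein gene (Solyc03g111710.3, Arabidopsis homolog BT1) had 8.71, 7.35 and 8.26 CPM in root −N and 583, 545 and 572 CPM in root +N libraries. Shoots had 37.2, 41.9 and 38.1 CPM in −N and 85.7, 96.2 and 92.4 CPM in +N. It was lowest in root −N and highest in root +N, and the rise was 70.1-fold in roots against 2.34-fold in shoots (interaction −4.90 ± 0.10, edgeR adjusted p = 7.59e-19). LOB domain-containing protein 38 (Solyc01g107190.3), whose Arabidopsis homologs repress nitrate-responsive genes, rose from 1.896, 0.668 and 0.688 CPM to 117, 117 and 124 CPM in roots. In shoots it rose from 5.96, 8.05 and 7.205 CPM to 60.1, 71.8 and 67.7 CPM. The rises were 112-fold and 9.38-fold. A second gene of that description (Solyc02g092550.3) rose in both organs, with N changes of 4.29 in roots and 4.81 in shoots, and its interaction of 0.52 was not called. The LBD41 homolog Solyc02g085910.4 had the larger rise in shoots (interaction 2.11).

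Of 18 WRKY transcription factor genes 6 were called (33.3%, against 14.2% of all tested and 28.8% of described genes), and 5 of them had the larger rise in roots with an interaction between −3.40 and −1.96. The root DEG lists hold 13 of the 18, and the call among the other 5 was not a larger rise in roots. WRKY transcription factor 3 (Solyc02g088340.4) had 41.5, 59.9 and 77.4 CPM in root −N and 175, 174 and 147 CPM in root +N libraries. In shoots it had 104, 99.2 and 94.9 CPM in −N and 61.6, 62.1 and 62.3 CPM in +N. The groups stood apart in both organs and in opposite directions, with N changes of 1.47 in roots and −0.68 in shoots. Of 35 genes of auxin response and transport 11 were called (31.4%, with 28.8% among described genes), 5 with the larger rise in roots, 4 with the larger rise in shoots and 2 with the larger fall in shoots. A run of small auxin up-regulated RNA genes was split, with a larger rise in roots for Solyc01g110580.2 (interaction −2.45) and Solyc01g110590.4 (−3.55) and a larger rise in shoots for Solyc01g110570.3 (1.02). Of 20 cytokinin genes 3 were called, which is 15% against 14.2% of all tested and 28.8% of described genes. Cytokinin oxidase2 (Solyc01g088160.4), which breaks the hormone down, rose 4.62-fold in roots and had an N change of 0.15 in shoots.

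Among the largest interactions with the larger rise in roots were genes of transport. Aluminum-activated malate transporter 9 (Solyc05g009580.3), in Arabidopsis an anion channel of the vacuole, had 1 count in root −N over 3 libraries and 20.6, 20.4 and 23.2 CPM in root +N. Its shoot level was 0.954, 2.002 and 1.29 CPM in −N and 1, 0.579 and 0.856 CPM in +N, and the treatments overlapped. The ratio in roots was 1330.4 with an exact 95% interval of 238 to 52595, which covers counting error only. A gene described as a subunit of a para-hydroxybenzoic acid efflux pump (Solyc06g075970.4) had no count in root −N and 7.17, 10.7 and 10.1 CPM in root +N, which is at least 192-fold higher than the floor of 3 counts over the −N group. In shoots the same gene fell from 0.859, 0.845 and 1.25 CPM to 0.118, 0.368 and 0.367 CPM, without overlap. A gene described as an unknown protein (Solyc09g072750.2) went from 0.102, 0.134 and 0.0491 CPM to 12.00, 12.2 and 11.7 CPM in roots, and in shoots it had 33.6 to 55.0 CPM over both treatments. Of 11 protease inhibitor genes, whose products protect tissue from digestion by insects and microbes, 7 were called (63.6%, against 14.2% of all tested and 28.8% of described genes). Their median interaction was −1.69, and 5 had the larger rise in roots (2.71% of all tested genes, and 424 of the 3995 described genes). All 5 are on the root DEG lists, which hold 9 of the 11, and neither of the remaining pair was called below 0. Of 69 genes for expansins, extensins and pectin enzymes of the cell wall 23 were called (33.3%, against 14.2% of all tested and 28.8% of described genes). The root DEG lists hold 58 of the 69, and 1 of the other 11 was called. Of the 23 called genes 11 had the larger rise and 9 the larger fall in roots, and the list thus had no shared direction. Among the rises were the genes for extensin-like proteins Solyc01g005850.2, Solyc01g005880.1 and Solyc01g097710.1, with interactions of −3.15, −3.17 and −2.53.

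The larger falls in roots held transporters of nitrate and of sugar. Of 30 nitrate transport genes 13 were called (43.3%, against 14.2% of all tested and 28.8% of described genes). Of these, 9 had the larger fall in roots (2.06% of all tested genes, and 350 of the 3995 described genes), 3 the larger rise in roots and 1 the larger fall in shoots. The median interaction of −0.11 was close to that of all tested genes, and 24 of the 30 are on the root DEG lists. Of the 6 on neither list, 0 were called above 0 and 1 below. All 9 larger falls in roots are thus genes of the root DEG lists. The summed level of the list, however, went from 1419.5 to 1463.5 CPM in root −N to 2837 to 2972 CPM in root +N libraries. The high-affinity nitrate transporter genes Solyc06g074990.3 and Solyc11g069735.1 rose in roots, from means of 52.4 to 628 CPM and of 132 to 376 CPM. The interaction of neither gene was called. Among the 3 larger rises in roots, the NRT1.1 homolog Solyc08g007430.2 rose 82.5-fold in roots, from 7 counts in −N, and 7.38-fold in shoots. The 9 genes with the larger fall in roots are described as members of the NRT1/PTR family (NPF), which in plants carries nitrate and also other solutes. Their interactions reached 5.35. The gene for NPF 6.1 (Solyc11g033283.1) fell in roots from a mean of 5.52 CPM to 2.08 CPM, while the mean in shoots was 42.9 CPM in −N and 55.6 CPM in +N. For Solyc08g077170.3, a homolog of Arabidopsis NRT1.5, which loads nitrate into the xylem, roots had 70 counts in −N and 1 count in +N over 3 libraries each, and shoots had 4.15, 3.74 and 3.02 CPM in −N and 2.82, 2.999 and 3.97 CPM in +N. Another homolog of NRT1.5 (Solyc08g007060.4) fell 2.04-fold in roots, had an N change of 0.07 in shoots, and was not called without root +N replicate 1 or 3 (interaction 0.99 in both cases). Their relative Solyc01g091180.4 went against the pair, with N changes of 1.87 in roots and 0.35 in shoots (interaction −1.52).

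Of 12 sugar transport genes 6 were called (50%, against 14.2% of all tested and 28.8% of described genes) and 5 had the larger fall in roots. The median interaction was 0.90 against −0.026 over all tested genes. The root DEG lists hold 10 of the 12 and all 6 called genes, and 0 of the other 2 were called. A bidirectional sugar transporter of the SWEET family (Solyc03g097600.3) fell in roots from 53.4, 46.9 and 47.8 CPM to 9.66, 9.92 and 11.8 CPM. In shoots it went from 18.4, 17.7 and 17.3 CPM to 9.004, 11.5 and 7.88 CPM. Its neighbour (Solyc03g097610.3) fell in roots by 2.29-fold and stood higher in all +N shoot libraries than in any −N shoot library, with an N change of 0.94 that was below the fold cutoff. Sugar transporter protein 15 (Solyc03g093400.2) and 16 (Solyc03g093410.3), of the family that imports hexoses into cells, lie next to each other and fell 5.65-fold and 2.26-fold in roots, with N changes of −0.47 and 0.27 in shoots. The levels of the pair went in opposite orders, since the first had 23.8 to 25.7 CPM in shoot −N and 4.76 to 6.30 CPM in root −N libraries and the second 8.27 to 10.1 and 141 to 151 CPM.

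An endoglucanase of the cell wall (Solyc02g083980.3) had 49.8, 42.4 and 51.7 CPM in root −N and 4.19, 4.404 and 4.27 CPM in root +N libraries. Shoot libraries held 45.9, 43.9 and 39.5 CPM in −N and 69.6, 73.6 and 75.3 CPM in +N. Both organs had about the same level in −N, roots fell 11.2-fold, and all +N shoot libraries lay above the −N ones with an N change of 0.76 (interaction 4.24 ± 0.13, edgeR adjusted p = 8.4e-16). An O-methyltransferase gene (Solyc06g007960.4) fell 13.6-fold in roots from 24.6, 23.4 and 25.2 CPM, and in shoots its treatments overlapped between 2.18 and 3.47 CPM. The gene described as beta-carotene isomerase D27-like (Solyc09g065750.3), D27 being the enzyme that starts strigolactone synthesis, fell from 20.7, 14.7 and 14.9 CPM to 0.212, 0.334 and 0.175 CPM in roots. In shoots it had 4 counts over 3 libraries in either treatment, and its interaction was not called without shoot +N replicate 2 (5.20, edgeR adjusted p = 0.115). The tonoplast aquaporin TIP4.1 (Solyc08g066840.3) fell 4.01-fold in roots and had an N change of −0.60 in shoots, in contrast to TIP1.1 with its larger rise in shoots.

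Genes of the same annotation were in several cases split between the organs. Both genes described as ATP sulfurylase, the first enzyme of sulfate assimilation, have APS1 as their Arabidopsis homolog. For Solyc03g005260.3 the level was 16.8, 16.96 and 16.5 CPM in root −N, 43.9, 47.6 and 54.5 CPM in root +N, 64.8, 60.1 and 62.1 CPM in shoot −N and 887, 821 and 860.0 CPM in shoot +N libraries. For Solyc09g082860.3 it was 322, 332 and 315 CPM, 886, 895 and 955 CPM, 160.1, 149.9 and 141 CPM and 161, 163 and 163 CPM in the same order. In roots the genes rose alike, by 2.903-fold and 2.82-fold, whereas in shoots the first rose 13.7-fold and the second had an N change of 0.11 ± 0.05. The interactions were 2.24 ± 0.10 and −1.39 ± 0.07 (edgeR adjusted p = 1.1e-13 and 9.84e-13). Among asparagine synthetase genes Solyc04g055200.3 had the larger rise in shoots (interaction 1.86) and Solyc06g007180.3 the larger fall in roots (1.73). How the counting treated reads shared by near-identical copies is not stated in the sources at hand, and values of close copies are uncertain.

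In 72 called genes, 0.32% of the genes tested, both organs passed the thresholds within the organ and with opposite signs, 45 with a rise in roots and a fall in shoots and 27 the other way. A tetratricopeptide repeat protein gene (Solyc08g076730.4) had 69.8, 96.96 and 109 CPM in root −N and 363, 315 and 268 CPM in root +N libraries. Shoots had 101, 119.8 and 141 CPM in −N and 7.36, 10.05 and 8.62 CPM in +N. In −N the organs had similar levels with slight overlap, and in +N roots stood far above shoots, after a rise of 3.43-fold and a fall of 13.8-fold (interaction −5.57 ± 0.22, edgeR adjusted p = 2.82e-14). A miraculin-like gene of the Kunitz inhibitor family (Solyc06g072220.1) rose in roots from 7.02, 6.59 and 6.04 CPM to 52.1, 49.4 and 47.01 CPM. In shoots it fell from 5.58, 4.98 and 5.38 CPM to 2.94, 2.05 and 2.69 CPM. The organs were again alike in −N, with an interaction of −3.98 ± 0.18. The RWP-RK gene Solyc01g112190.3, of the family that holds the NLP nitrate sensors, went the other way and had the same level in both organs in +N (14.8 ± 2.64 CPM in roots and 14.9 ± 2.16 CPM in shoots, SD, n = 3).

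**Figure D4:**
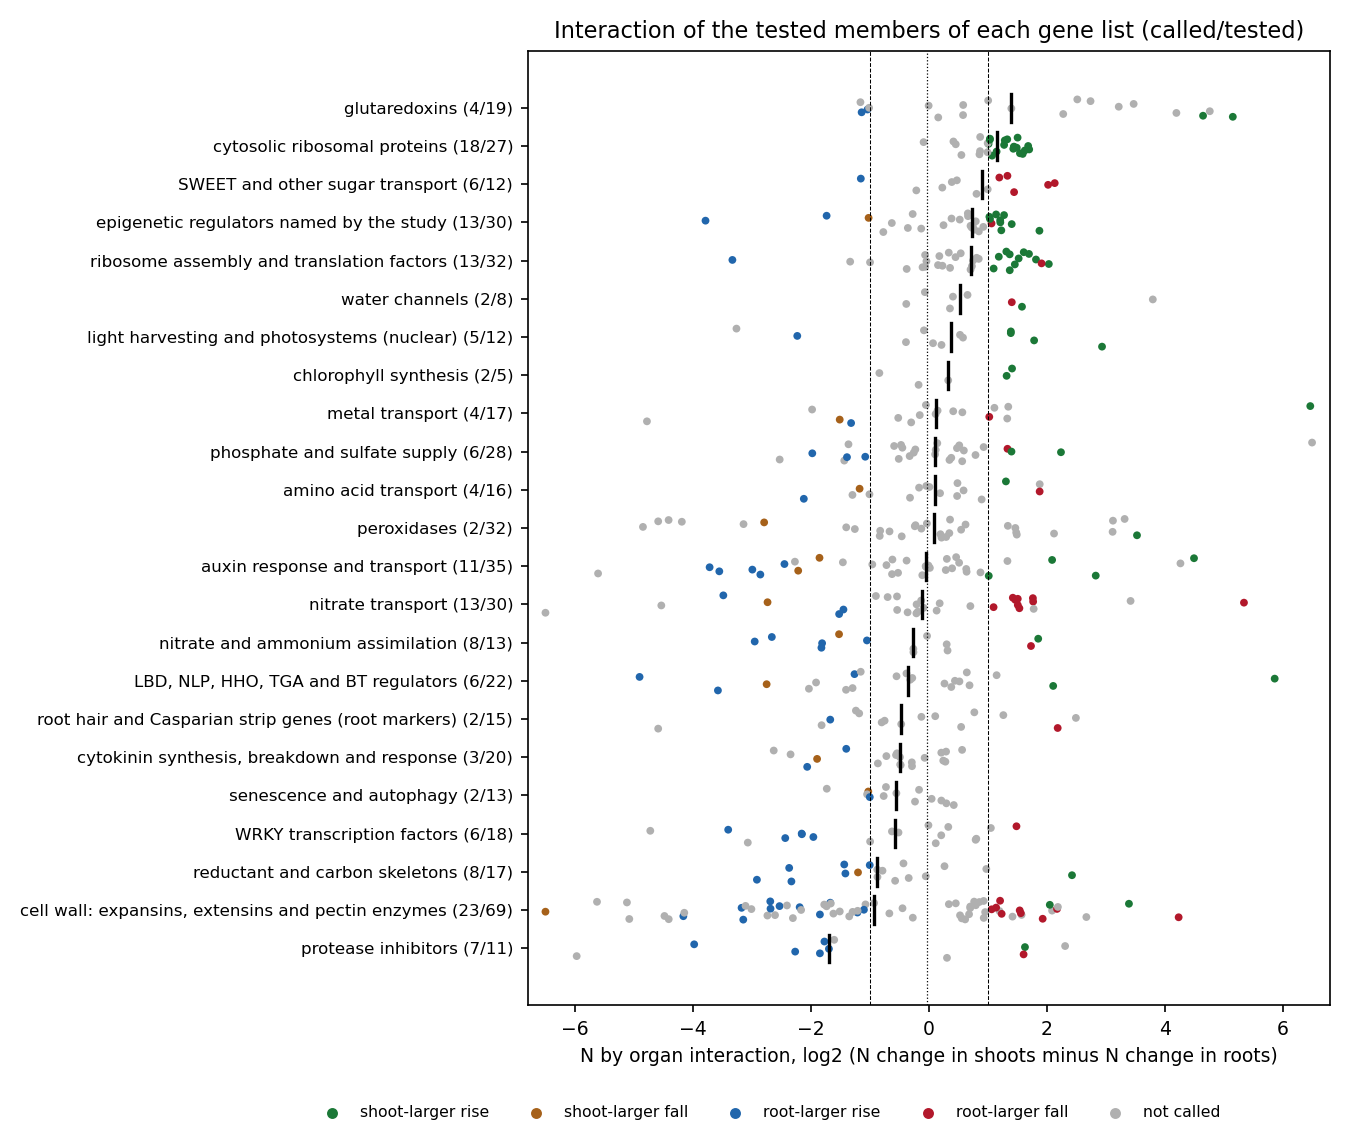
N by organ interaction (log2, N change in shoots minus N change in roots) of the tested members of 23 gene lists, with values beyond 6.5 drawn at 6.5, black bars at the median of each list, a dotted line at the median of all tested genes (−0.026) and dashed lines at 1 and −1. The numbers after each name give called and tested members, and the 27 ribosomal protein genes lie to the right with 18 called, while the 11 protease inhibitor genes have their median at −1.69. Grey points were not called.

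The remaining lists had shares of called members below the 28.8% of described genes. Peroxidases had 2 of 32 called (6.25%), root hair and Casparian strip genes 2 of 15 (13.3%) and senescence and autophagy genes 2 of 13 (15.4%). These small counts did not hold in every setting, with 0 for peroxidases without shoot +N replicate 2, 1 for root hair and Casparian strip genes without shoot −N replicate 3, and 0 for senescence and autophagy genes with DESeq2 and with TMM within each organ. Metal transport genes had 4 of 17 called, with 1 in each class (2 called without root +N replicate 2), and amino acid transport genes 4 of 16, also with 1 in each class. Phosphate and sulfate supply genes had 6 of 28 called. The 19 glutaredoxin genes had a median interaction of 1.40 with 4 called, 2 with the larger rise in shoots and 2 with the larger rise in roots. The count of called genes was 1 without root −N replicate 1 or shoot −N replicate 2 and 9 with voom. In this list 8 genes between Solyc04g011780.1 and Solyc04g011870.1 had no count in −N in either organ. Their interactions depend on the fit's prior count, and the median of the list is not a measure of its response. Genes of the core pathway were also found without a call. Glutamate synthase (Solyc03g083440.4), which pairs with glutamine synthetase in ammonium assimilation, had an interaction of −0.03 ± 0.12 with N changes of 3.72 in roots and 3.69 in shoots, and a nitrate transporter gene of the NRT1.2 type (Solyc05g006990.3) had 0.13 ± 0.10.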

How the data were processed

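mRNA of roots and shoots was sequenced in 12 libraries (4 groups of 3 replicates). The authors deposited unnormalized read counts per gene for 34075 genes, made with Cutadapt, TopHat2 and HTSeq on genome build 4.0, and all sample columns were used. Tool versions and the strand setting were not given in the sources used here. Other assays were not analysed here.

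All libraries were fitted together in R 4.3.3 with edgeR 4.0.16 (TMM over 12 libraries, filterByExpr at its default minimum of 10 counts and total of 15, glmQLFit, glmQLFTest, 4 group means, no block). Benjamini-Hochberg adjustment ran over 22483 genes. The test returns no SE, and the SE given with a log2 value is that value, without its sign, divided by the square root of the test's F statistic. A call required a 2-fold interaction and an adjusted p of 0.015, the thresholds of the study's DEGs, which the study itself obtained with DESeq2 within each organ. Exact permutation over 3 and 3 libraries, as for the N change within an organ, reaches no p under 0.1 for any gene taken alone. This floor is not that of the interaction, which rests on 12 libraries. Replicates of a group differed by more than counting noise.

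The members of each class follow from the fit. Gene lists were drawn by keyword from the study's gene descriptions, and the lists, the thresholds and the rule for named genes were chosen with earlier results of these data known. The rule names the 3 largest interactions of each class with at least 5 CPM in the responding organ, the 5 largest with a description, the 3 largest in opposite directions with that level in both organs, the genes the paper names, and up to 4 called members of each list. Other genes named were chosen after their values were seen. Alternatives were DESeq2 1.42.0, limma 3.58.1 (voom), other scalings, filters and thresholds, glmTreat, the replicate number as a block, and leaving out each library. Tested on simulated data with 200 of 22283 genes changed, the fit recovered 87 of 100 3-fold and 96 of 100 8-fold interactions with 1 false call. In the simulation as many interactions were raised as lowered, and genes of the lowest levels were not among those changed. All other genes had the same N change in both organs. The simulation therefore does not cover errors of scaling when many genes differ, or the recovery of interactions at low counts. Gene identifiers did not match the reference table used here, so no sequences or coordinates are given.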

Additional observations from a re-analysis of the deposited data

Results flagged for a closer look

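The N change differed between roots and shoots, by edgeR's test of the difference itself, in 3200 genes, of which 1162 had the larger rise and 964 the larger fall in shoots, 610 the larger rise and 464 the larger fall in roots. In 72 of them the organs were called in opposite directions. The most extreme of these with at least 5 CPM in the higher group of each organ were Solyc01g112190.3 (interaction 5.87), Solyc08g076730.4 (−5.57) and Solyc06g072220.1 (−3.98). Each had 3 of 3 libraries on the stated side in both organs. Groups of 3 libraries are too small for a search for outlying samples.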

How the results depend on the processing

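Limits: 3 replicates per group, reads of close gene copies, and low counts. Of the called genes, 75 had at most 3 counts in a group, and their interactions depend on the fit's prior count. No call of a named gene reversed under any of 24 alternatives, and 65 of 102 called named genes kept their call in each of them. Leaving out a library cost 21 of the 102 their call in at least 1 case. It gave 3021 to 3282 called genes, and the classes ranged from 1101 to 1203 and 905 to 984 in shoots, from 574 to 659 and 423 to 468 in roots, and from 58 to 80 for opposite directions.

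Counts over all genes moved by over 1.5 times with the threshold and with no other setting. Without a fold cutoff, at the same adjusted p, 9177 genes passed (3099 larger rises and 3479 larger falls in shoots, 1365 and 1234 in roots, 1248 in opposite directions). With a 1.5-fold cutoff 6420.0 passed (2327, 2259, 983, 851 and 307), and glmTreat, which tests whether the difference exceeds 2-fold, called 1142 (449, 300.0, 271 and 122). DESeq2 called 3325 genes, sharing 2931 with edgeR, and voom 3100, sharing 2982. At an unadjusted p of 0.05 12070 genes passed in edgeR. Among the gene lists, called members moved by over 1.5 times at the same threshold for glutaredoxins (4, 1 to 4 with a library left out, 2 with TMM within each organ, 9 with voom), peroxidases (2, 0 to 2, 1 and 4) and senescence and autophagy genes (2, 1 to 3, 0 and 2). With a library left out it was 2 to 4 for metal transport, and 1 to 2 for chlorophyll synthesis and 1 to 3 for root markers, from 2 each.

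The interaction of Solyc03g083440.4, which was not called, was 0.051 with DESeq2 and with its size factors in edgeR, 0.056 with TMM within each organ, and −0.113 to 0.0932 with a library left out. That of Solyc07g043230.3, not called either, ranged from −0.293 to 0.0732 and turned its sign without root +N replicate 1.

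Libraries with the same replicate number did not deviate together (correlations −0.032 to 0.051 over 18 pairs). Whether roots and shoots of the same number came from the same plants cannot be read from these values. With the replicate block 3128 genes were called, 3107 of them shared with the fit without it.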

Other observations

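Called genes of the same class also lay side by side. In the order of the gene identifiers among tested genes there were 26 runs of at least 3 neighbours of the same class, with 83 genes in all and at most 5 in a run. No test of this count was made. A run of 5 larger rises in shoots on chromosome 8, from Solyc08g080630.4 (an ethylene-responsive proteinase inhibitor) to Solyc08g080670.1 (a pathogenesis-related 5-like protein), had interactions of 1.28 to 2.00 although each of the 5 genes had its higher level in roots (shoot minus root −9.09 to −3.69 on the log2 scale). On chromosome 2, 4 neighbours that end with a chlorophyll a-b binding protein gene (Solyc02g070980.1) had interactions of 1.35 to 3.29 and a shoot minus root difference of 7.61 to 9.42. Neighbouring genes of a family can share reads, and the part of this in the runs was not tested.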
